A study of Zea mays with 4 samples.

Results

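A group of 61 nuclear genes was already transcribed in maize seedlings at normal growth temperature. After a day in the cold, the mean RNA-seq level of each, scaled to library totals, was at least 16 times as high. The genes were selected on the count table itself. Counts were scaled to CPM, that is assigned fragments scaled to a common library total, and a gene was kept when both control libraries held at least 1 CPM and the mean cold CPM was at least 16 times the mean control CPM. Of 46430 loci in the table, 44146 carry a nuclear gene identifier, 20281 of those reached 1 CPM in both control libraries, and 61 of these (0.301%) met the fold requirement. A run of genes on chromosome 8 was set aside by the rule, and 0 of its genes would have met it. Because cold and control levels chose the genes, the size of their increase is given here as a description and supports nothing further.

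The samples were whole wild-type seedlings of B73, the inbred line behind the maize reference genome, in 2 libraries per condition. All plants grew in soil under 16 h of light and 8 h of dark at 25 to 28 °C for 9 days. Control plants then stayed at that temperature, and cold plants spent 24 h at 4 °C, so both were 10 days old at harvest. Tissue from 10 plants was collected, and whether a condition's libraries came from separate growth batches is not stated, so any p-value measures only the spread between these libraries. In whole seedlings, more RNA per cell and more cells of a type that express a gene cannot be told apart.

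The libraries held between 20942576 and 28493929 assigned fragments. Mitochondrial genes, a sign of RNA quality, took 0.0765% and 0.0701% of fragments in control and 0.134% and 0.112% in cold, and their part in the results was not tested. No pair of replicates looked like a library deposited in duplicate: chi-square per degree of freedom, computed across genes, was 11.3 in control and 25.0 in cold.

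Maize comes from the tropics and is sensitive to chilling. In plants, low temperature alters membranes, photosynthesis and water relations, and it changes transcription widely. Much of what is known comes from Arabidopsis, where the DREB1/CBF transcription factors of the AP2/ERF family bind a short promoter element and switch on genes for dehydrins and other protective proteins, for enzymes of soluble sugar synthesis and for further transcription factors. Transcripts of such genes are typically scarce in warm plants. The identifiers in the table could not be paired with gene names, since 0 of 44146 nuclear identifiers matched the RefSeq gene table used here, so it was not determined which of the 61 genes belong to these classes. They are therefore described by their position in B73 RefGen_v4, their exon structure and their levels. Exons of all transcripts of a gene were merged where they overlapped, and exon numbers and lengths refer to these merged exons.

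At the median, levels of the 61 genes were low in control seedlings and high in the cold, with wide ranges in both conditions. Their control means ran from 1.07 to 280.2 CPM with a median of 3.96, against a median of 18.2 CPM over all 20281 expressed nuclear genes. Their cold means ran from 19.2 to 6706 CPM with a median of 144 against 15.6 CPM. The median member thus lay above 16.6% of expressed nuclear genes in control and above 93.8% in cold. In 36 genes the control mean was under 5 CPM, and in 12 of these it was under 2 CPM. In the cold, 38 genes reached at least 100 CPM and 10 reached at least 500 CPM.

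**Figure D1:**
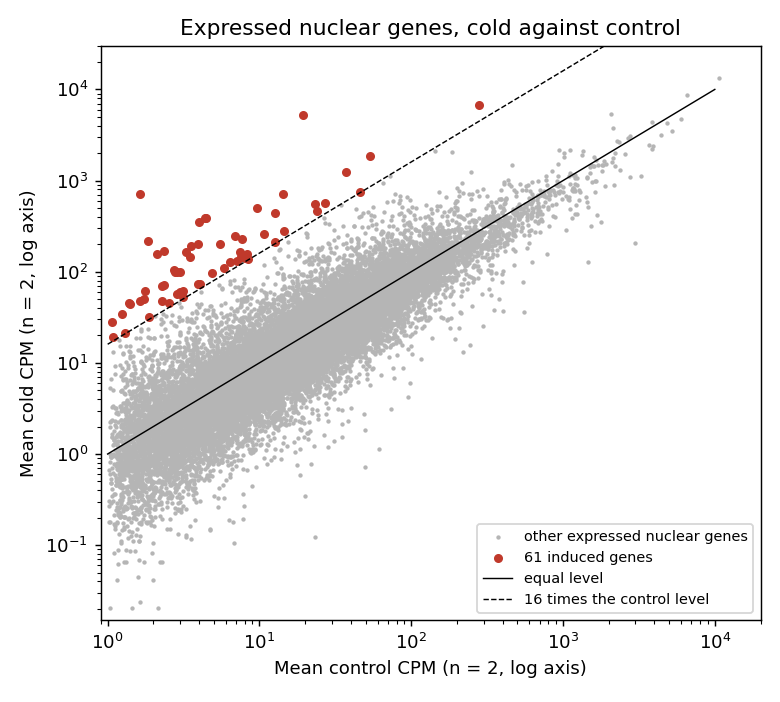
Mean cold CPM against mean control CPM (2 libraries each, both axes logarithmic) for nuclear genes with at least 1 CPM in both control libraries. Red points are the 61 genes, grey points the other expressed genes, and genes without a cold fragment are not drawn. The red points lie on or above the dashed line at 16 times the control level, and most of them lie at control levels under 5 CPM.

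The ratio of mean cold to mean control CPM had a median of 28.9 and a range of 16.2 to 434. It was at least 32 in 25 genes, at least 64 in 8, and the 2 steepest genes reached 270.4 and 434. In the all-gene fit (edgeR quasi-likelihood test, Benjamini-Hochberg adjustment over 23169 genes), all 61 were called higher in cold, with log2 fold changes of 4.22 to 8.97, standard errors of 0.16 to 0.57 and adjusted p-values of 1.3e-05 to 0.00057. Over all genes tested 27.0% were called higher. Of all calls, 6256 were higher and 6259 lower, and the lower calls numbered 3978 without control replicate 2. The upward share of calls was 36.8% with library totals alone and 39.85% with upper-quartile factors, which moved the median log2 fold change of all genes from -0.03 to -0.24 and -0.19. The rule used the same contrast, so nothing is read from the count of 61. Both cold libraries lay above both control libraries in each of the 61 genes, as they did in 27.9% of expressed nuclear genes. From the lower cold library to the higher control library the ratio was 8.03 to 383, with a median of 19.1, and it stayed at 16 or more in 39 genes.

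**Figure D2:**
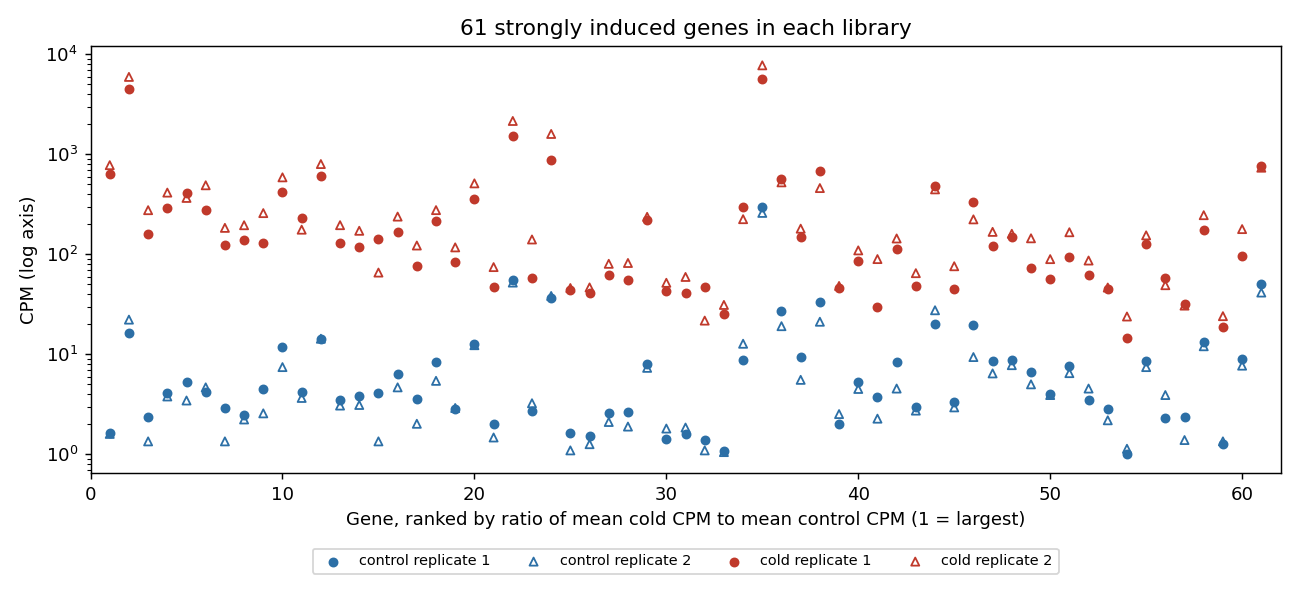
CPM of the 61 genes (logarithmic axis) in each of the 4 libraries, with genes ranked along the horizontal axis by their ratio of mean cold to mean control CPM. Filled circles are replicate 1 and open triangles replicate 2, blue for control and red for cold. Every red mark stands above both blue marks of its gene, and in 49 of the 61 genes the cold triangle stands above the cold circle.

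The steepest increase was that of Zm00001d049543, on the plus strand of chromosome 4 (34070590 to 34104400). Fragments numbered 47 and 38 in control and 15269 and 16337 in cold, that is 1.65 and 1.602 CPM against 632 and 780 CPM. Its control level of 1.63 ± 0.0332 CPM (SD, n = 2) is among the lowest of the 61 genes, and its cold level of 706 ± 105 CPM the seventh highest. With 10 exons and 4037 bases of exon spread over 33811 bases, it also occupies the widest stretch of genome in the group, against a median span of 2707 bases. Its log2 fold change was 8.97 (SE 0.26), and it lay between 8.76 and 9.17 when any of the 4 libraries was left out.

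Zm00001d028180, on the plus strand of chromosome 1 (25632515 to 25636718, 9 exons), combined a large ratio with a very high level. Fragments numbered 464 and 528 in control and 108139 and 124663 in cold. In CPM these were 16.3 and 22.3 against 4473 and 5953, a ratio of 270. In the control libraries it ranked 10641 and 9146 among all loci by fragments, and in the cold libraries it ranked 5 and 4. Per kilobase of exon it had the highest cold level of the group, 1934 FPKM (CPM divided by exon length in kilobases) against 7.15 FPKM in control.

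The next 6 genes by ratio all started from under 6 CPM in each control library. On the minus strand of chromosome 4, a gene with 2 exons (18295246 to 18296266) went from 2.35 and 1.35 to 161 and 277 CPM, a ratio of 118. On the minus strand of chromosome 5, a gene with 5 exons (3492135 to 3493834) went from 4.14 and 3.80 to 289 and 415 CPM, a ratio of 88.7. On the plus strand of chromosome 9, a gene with 8 exons (121905287 to 121910624) went from 5.33 and 3.46 to 410 and 367 CPM, a ratio of 88.4. The chromosome 9 gene was the only one of these 3 with more in cold replicate 1 than in cold replicate 2. On the minus strand of chromosome 7, a gene with 6 exons (122218775 to 122221535) went from 4.18 and 4.68 to 277 and 491 CPM, a ratio of 86.8. On the minus strand of chromosome 6, a gene with 5 exons (172321981 to 172324231) went from 2.88 and 1.35 to 125 and 184 CPM, a ratio of 73.2, and its control libraries differed 2.13-fold. On the minus strand of chromosome 10, a gene with 4 exons (77700138 to 77703390) went from 2.46 and 2.24 to 141 and 196 CPM, a ratio of 71.7. In all 6 the spread between libraries of a condition was far smaller than the gap between conditions, which was at least 43.6-fold from the lower cold to the higher control library. A chromosome 5 gene (201217982 to 201223628, plus strand, 11 exons) and a chromosome 7 gene (176675147 to 176679923, minus strand, 7 exons) followed with ratios of 54.5 and 52.8.

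Most of the transcript mass gained by the group came from 4 genes that were among the 100 most abundant loci of both cold libraries. None of the 61 genes was among the 100 most abundant loci of a control library. A chromosome 6 gene (22131705 to 22136034, minus strand, 3 exons) had the highest level in the group in both conditions, with 300 and 260 CPM in control and 5644 and 7767 CPM in cold. It ranked 443 and 523 by control fragments and 3 in both cold libraries, although its ratio of 23.9 was below the median of the group. Zm00001d028180 came next, with 5213 ± 1046 CPM (SD, n = 2) in cold. A chromosome 9 gene (152369266 to 152374321, plus strand, 7 exons) went from 55.2 and 52.2 to 1542 and 2158 CPM and ranked 36 and 20 in cold. A chromosome 3 gene (34652668 to 34657191, plus strand, 13 exons) went from 36.4 and 38.4 to 878 and 1601 CPM and ranked 88 and 39. In these last 2 genes the control libraries lay within 1.06-fold of each other, while the cold libraries differed 1.40- and 1.82-fold.

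Behind these came genes at lower cold levels. The gene nearest the 16-fold limit, on chromosome 7 (148065548 to 148071232, minus strand, 9 exons), went from 50.8 and 41.5 to 757 and 736 CPM. A chromosome 6 gene (116839545 to 116843339, minus strand, 6 exons) went from 14.1 and 14.3 to 612 and 800 CPM. A chromosome 4 gene (157872166 to 157873662, minus strand, 2 exons) went from 33.1 and 21.2 to 686 and 460 CPM. The cold level of the chromosome 7 gene repeated within 1.03-fold, whereas the chromosome 4 gene was higher in replicate 1 in both conditions. Per kilobase of exon, the order of cold levels began with Zm00001d028180 at 1934 FPKM and the chromosome 6 gene with 3 exons at 1643 FPKM. The chromosome 3 gene with 13 exons (525 FPKM), the chromosome 9 gene with 7 exons (501 FPKM) and the chromosome 6 gene with 6 exons (441 FPKM) followed. The spread of each pair of cold libraries was larger than the gaps between the neighbours in this order, except for the step from the first 2 genes to the other 3.

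Together the 61 genes accounted for 0.0813% and 0.0707% of assigned fragments in control and for 2.27% and 2.95% in cold. The 3 most abundant of them made up 51.3% and 53.8% of the group's cold fragments, and without these 3 the group still took 1.11% and 1.36% of the cold libraries. Among 7415 expressed nuclear genes with a higher mean in cold, the summed gain was 225776 CPM, of which the 61 genes contributed 25344 CPM or 11.2%.

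A high ratio was not confined to genes that were scarce in control, but such genes were a larger share of the group than of expressed nuclear genes. A control mean under 2 CPM was found in 19.7% of the group, against 6.34% of expressed nuclear genes. A control mean of 10 CPM or more was found in 21.3%, against 65.3%. The control mean is the denominator of the ratio that chose the genes, so the rule itself favours low control levels. These shares are descriptions only. Expressed nuclear genes 8 to 16 times higher in cold (105 genes) had a median control mean of 4.12 CPM, close to the 3.96 CPM of the 61 genes. Every gene was chosen at a ratio of at least 16, so the class medians that follow cannot show how the ratio depends on control level. The 12 genes with a control mean under 2 CPM had a median ratio of 29.2, the 36 genes between 2 and 10 CPM a median of 29.9, and the 13 genes at 10 CPM or more a median of 23.9. In cold the medians of these 3 classes were 44.5, 134 and 573 CPM. Of the 25 genes past 32-fold, 4, 16 and 5 came from the classes in that order.

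The 2 cold libraries were not equal in these genes. In 49 of the 61 (80.3%) the level was lower in cold replicate 1 than in cold replicate 2, against 37.0% of expressed nuclear genes, and the median ratio of the first to the second was 0.746 against 1.08. The control libraries leaned the other way, with a higher level in control replicate 1 in 46 genes (75.4%) against 37.9%, and a median ratio of 1.16 against 0.960. Both held in 37 of the 61 genes and in 16.2% of expressed nuclear genes. With TMM-scaled library sizes, an alternative added after the data were seen, the median ratios of the 61 genes were 0.690 in cold and 1.21 in control. On the same TMM scale, expressed nuclear genes within 2-fold between conditions had medians of 1.001 in cold and 0.9986 in control. By library totals, expressed non-members with control levels in the interquartile range of the 61 genes (4405 genes) had medians of 1.07 and 0.931. The labels give no batch for these libraries. The alignment names in the file header carry a number that both control libraries share and that differs between the cold libraries, and the word "sample" in cold replicate 1 alone. What these mark is not stated. The number also separates each cold library from both control libraries. No comparison of cold with control can therefore be made within a single number. If it marks a batch, batch and cold cannot be told apart in any contrast given here.

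Across the genome the cold ratio was lowest in the 61 genes and highest in the genes that fell most, but the order was not strict among the induced classes. The classes are cut on means that include the same cold libraries, so this is a description. Genes that were 8 to 16 times higher in cold (105 genes) had a median cold replicate ratio of 0.887, those 4 to 8 times higher (375 genes) 0.882 and those 2 to 4 times higher (1393 genes) 0.973. Genes within 2-fold (14027 genes) had 1.08, and genes more than 4-fold lower (1002 genes) had 1.17. With TMM-scaled sizes the medians of the classes at least 2-fold higher were, from the 61 genes downwards, 0.690, 0.820, 0.816 and 0.899, and that of the last class was 1.08. In control, the 61 genes stood further from 1 than the other classes, whose medians ran from 0.957 to 1.02.

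**Figure D3:**
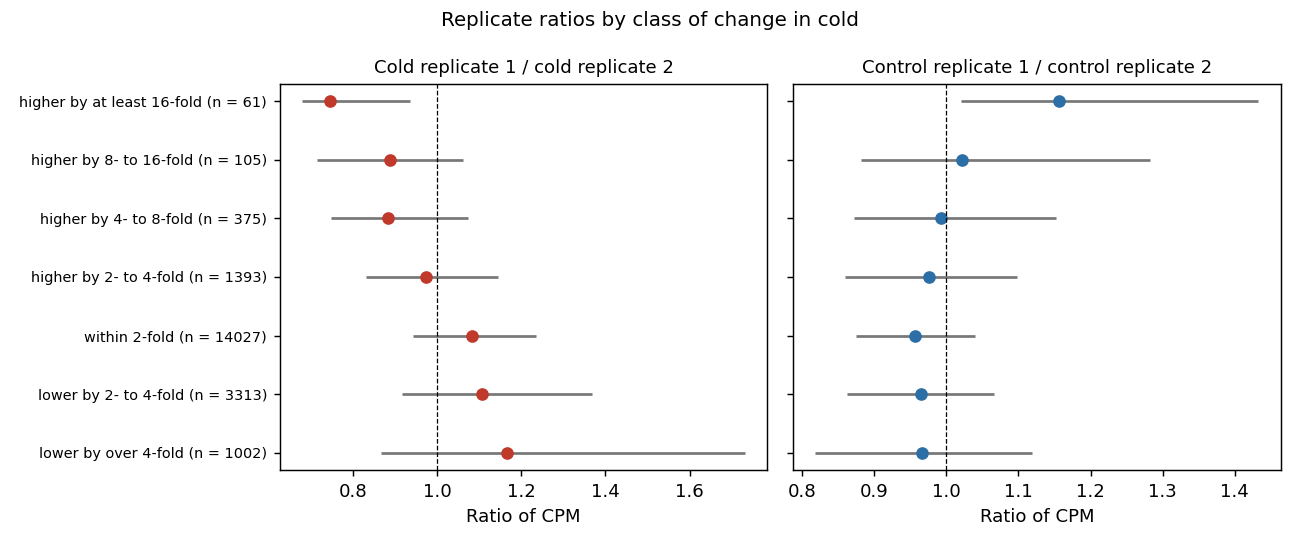
Ratio of CPM in replicate 1 to replicate 2 for the cold libraries (left) and the control libraries (right), for expressed nuclear genes in 7 classes of mean cold over mean control CPM. Points are medians over genes, bars span the lower to the upper quartile, n is the number of genes, and the dashed line marks equal levels. The cold median moves from 0.746 in the 61 genes at the top to 1.17 in genes lower by over 4-fold at the bottom, and the control median is highest, at 1.16, in the 61 genes.

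A few genes departed from this pattern or had libraries far apart. The gene with the largest gap between the cold libraries was a single-exon gene of chromosome 8 (160235115 to 160235972, minus strand), with 106 and 54 fragments in control and 722 and 1880 in cold. Its cold levels of 29.9 and 89.8 CPM differed 3.01-fold, and the fitted log2 fold change of 4.53 (SE 0.57) became 3.46 without cold replicate 2. A chromosome 6 gene (161809629 to 161813487, plus strand, 9 exons) had cold levels of 57.7 and 141 CPM, a 2.44-fold gap, with 2.74 and 3.25 CPM in control. The chromosome 5 gene with 11 exons described above had 129 and 259 CPM in cold, a 2.01-fold gap. In 12 genes cold replicate 1 was the higher library. Of these, a chromosome 6 gene (164808309 to 164812048, plus strand, 6 exons) had 47.2 and 21.8 CPM in cold and 1.40 and 1.10 CPM in control. A chromosome 7 gene (144743120 to 144744903, minus strand, 2 exons) had 141 and 65.8 CPM in cold and 4.14 and 1.35 CPM in control, so it was higher in replicate 1 under both conditions. In 5 of the 61 genes the cold libraries were over 2-fold apart (8.20%, against 3.73% of expressed nuclear genes), and in 3 the control libraries were (4.92% against 1.09%).

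With 1 library of each condition choosing the genes, the ratio was also taken in the other libraries of this series. When control replicate 1 and cold replicate 1 alone chose the genes, 53 met the same limits with a median ratio of 25.8, and in the replicate 2 libraries the same 53 genes had a median ratio of 40.4, with 45 of them past 16-fold. The exception was a gene with a ratio of 0.351 in the replicate 2 libraries, the only one of the 53 that was not at least 2-fold higher there. When the replicate 2 libraries chose, 82 genes met the limits with a median of 29.2, and in the replicate 1 libraries their median was 21.0, with all 82 at least 2-fold higher and 50 past 16-fold. Replicate numbers only name the libraries here, and the crossed pairings gave medians of 23.1 and 31.0 in the libraries that did not choose. The 61 genes include 45 of the 53 and 60 of the 82, so this is a description and no independent support. The ratio was larger in the replicate 2 libraries in 86.9% of the 61 genes, against 34.1% of expressed nuclear genes.

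The limit of 16-fold divides a continuum. The 3 genes just inside were the chromosome 7 gene with 9 exons described above (16.2), a chromosome 7 gene (36171251 to 36178389, minus strand, 12 exons, ratio 16.3) and a chromosome 1 gene (92217234 to 92219505, plus strand, 2 exons, ratio 16.5). The 3 just outside were on chromosome 4 (14493118 to 14493396, 15.995), chromosome 1 (68244474 to 68250776, 15.6) and chromosome 2 (48066763 to 48071352, 15.3). The chromosome 2 gene went from 69.4 and 76.6 to 754 and 1483 CPM, a higher cold level than all but 4 of the 61 genes. Outside the run set aside on chromosome 8, a further 105 expressed nuclear genes lay between 8- and 16-fold. The control minimum mattered as well: 164 nuclear genes with at least 1 control fragment exceeded 16-fold but did not reach 1 CPM in both control libraries. This count does not leave out the run on chromosome 8. With the 61 genes it makes 225, of which 172 reached 1 CPM in both cold libraries, so some of the 164 were near the floor in cold too.

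Gene structure was not used in the choice. The 61 genes had between 1 and 13 exons with a median of 4, the same as the median of expressed nuclear genes. Genes with 2 exons were 15 of the 61 (24.6%), against 12.8% of expressed nuclear genes and 16.7% of those with like control levels. Genes with 1 or 2 exons together were 36.1%, above the 27.2% of expressed nuclear genes and below the 41.2% of those with like control levels. Genes with more than 10 exons were 4 (6.56%), against 14.0% and 6.67%. Exon length had a median of 1913 bases against 1994, whereas the span from the start to the end of the gene had a median of 2707 bases against 3865, so introns took 642 bases at the median against 1304. Expressed non-members with like control levels had a median of 3 exons, 1612 exon bases, a span of 2679 bases and 669 intron bases, so the span and introns were close to those of the 61 genes and the exon length was shorter. Genes are not replicates, so these differences carry no test.

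**Figure D4:**
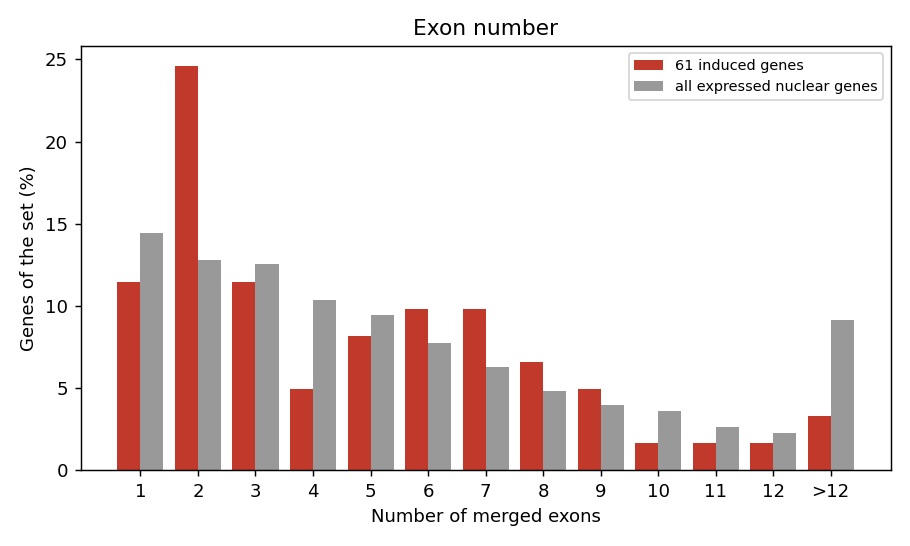
Percentage of the 61 genes (red) and of all 20281 expressed nuclear genes (grey) by number of merged exons. Genes with 2 exons made up 24.6% of the red set and 12.8% of the grey set, and genes with more than 12 exons 3.28% and 9.17%.

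Within the group, the 7 single-exon genes did not reach the steepest changes. With 7 genes, ordered by the ratio that also chose them, this cannot be read as a trait of single-exon genes. The ratios of the 7 single-exon members ran from 18.4 to 28.9. The 25 genes past 32-fold comprised 6 of the 15 genes with 2 exons and 19 of the 39 genes with more. The single-exon gene with the largest ratio lies on the plus strand of chromosome 3 (222721378 to 222722379) and had 46 and 44 fragments in control and 990 and 1246 in cold. The most abundant gene with a single exon, on chromosome 2 (36039302 to 36040798, minus strand), went from 8.74 and 12.8 to 298 and 225 CPM. It had the higher control and the lower cold level in replicate 2, opposite to most of the group. The shortest gene was the chromosome 8 gene with 858 bases described above. The longest by exon length, at 5947 bases, lies on the minus strand of chromosome 6 (157518291 to 157524838) and went from 19.7 and 9.40 to 334 and 224 CPM. The largest exon number, 13, was shared by the abundant chromosome 3 gene and by a chromosome 4 gene on the plus strand (174610009 to 174614912). The chromosome 4 gene went from 1.65 and 1.10 to 43.9 and 46.1 CPM.

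The 61 genes were spread over all 10 chromosomes and 0 lay on unplaced contigs. Chromosomes 8 and 9 held 2 each and chromosome 2 held 9, and the share of expressed genes that were members ran from 0.108% on chromosome 8 to 0.488% on chromosome 7. The median distance between successive members on a chromosome was 20702 kb. Only 3 pairs lay within 1000 kb of each other, and 1 of these consisted of neighbouring annotated genes.

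That pair lies on chromosome 10, in divergent orientation with 52.9 kb between the genes. The member on the minus strand (139926048 to 139927942, 6 exons) went from 4.00 and 3.92 to 56.6 and 89.7 CPM. The member on the plus strand (139980859 to 139983545, 3 exons) went from 3.55 and 2.02 to 76.7 and 123 CPM. Both were higher in cold replicate 2 than in cold replicate 1, by 1.58- and 1.599-fold.

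In another pair, on chromosome 5, 55.1 kb separate the gene with a ratio of 88.7 from a second gene (3433739 to 3437031, plus strand, 2 exons) that went from 6.67 and 5.02 to 73.2 and 145 CPM. Of the 6 annotated genes in between, 5 were expressed in control. Of these, 4 were called lower in cold, by log2 fold changes of -0.41 to -2.98 (edgeR, adjusted p = 0.045 to 9.5e-05), and the other had 0.08 (adjusted p = 0.61). On chromosome 7, 429 kb and 12 annotated genes separate the gene with a ratio of 16.2 from a second gene (147632776 to 147636889, plus strand, 5 exons) that went from 8.70 and 7.80 to 150 and 161 CPM. Of those 12 genes, 5 were expressed in control, and 3 of them were called higher, by log2 fold changes of 0.43, 1.93 and 2.11 (edgeR, adjusted p = 0.021, 0.00023 and 7.2e-05). Of the other 2, a gene was called lower (-0.68, adjusted p = 0.016 by edgeR) and the other had 0.40 (adjusted p = 0.50). The member with 5 exons had the smallest standard error of the group, 0.16 on a log2 fold change of 4.45.

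Most neighbours of the 61 genes did not share their increase, but some did. Of the non-member genes next to a member in annotation order, 78 were tested. Their median log2 fold change was 0.21, against -0.03 over all genes tested, and 29 (37.2%) were called higher and 18 (23.1%) lower, against 27.0% in each direction over all genes. A fitted log2 fold change of at least 4 with a call was found in 6 of them (7.69%), against 1.15% of all genes tested. These values come from the contrast that chose the members and are descriptions with no test.

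The 6 neighbours lay between 8.35 and 59.3 kb from their member, and 4 of them were on the same strand as the member. They were singled out after their values were seen. Beside the chromosome 10 gene with a ratio of 71.7 lies a gene with 3 exons on the same strand (77722777 to 77724235) that had 8 and 4 fragments in control and 697 and 814 in cold. Beside a single-exon member on the minus strand of chromosome 1 (182596026 to 182597609), which went from 8.32 and 4.55 to 112 and 144 CPM, lies another single-exon gene on the same strand (182579405 to 182580994). That neighbour had 7 and 12 fragments in control and 400 and 277 in cold. Beside the chromosome 7 gene with a ratio of 52.8 lies a gene with 14 exons on the same strand (176688275 to 176696366), with 15 and 12 fragments in control and 288 and 284 in cold. These 3 neighbours missed the group only through the control minimum of 1 CPM. Beside the single-exon chromosome 8 member lies a single-exon gene in divergent orientation (160278127 to 160279059), with 103 and 55 fragments in control and 956 and 1058 in cold, a ratio of 15.2. Both genes had more cold fragments in replicate 2, with a larger gap in the member (722 and 1880). These counts are not scaled. Cold replicate 1 held more assigned fragments in all (24176378 against 20942576), so near-equal counts do not mean equal levels. The remaining 2 neighbours, on chromosomes 2 and 10, had at most 22 fragments in any library. Reads that match several places were not counted, so levels of neighbours that are close copies of a member would be uncertain, and similarity was not examined here.

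**Figure D5:**
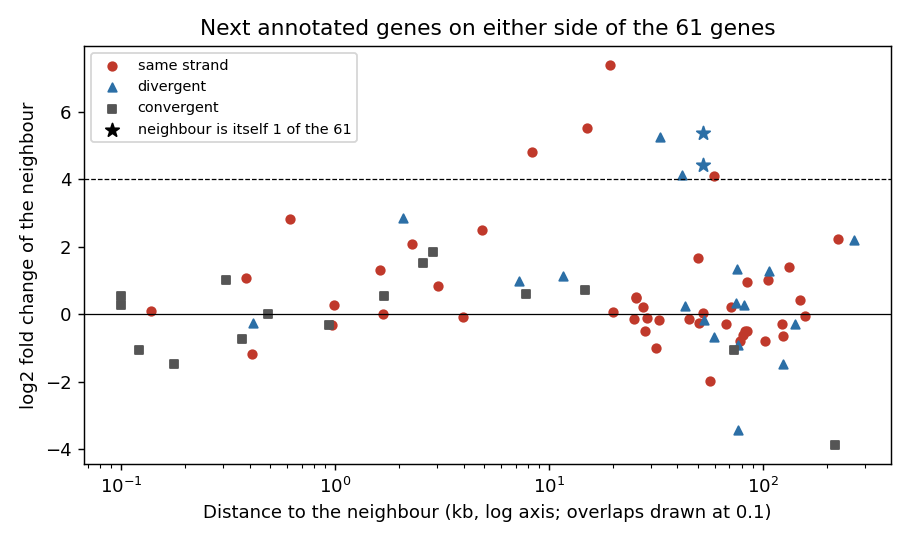
log2 fold change (cold over control) of the next annotated genes on either side of the 61 genes, for neighbours tested in the all-gene fit, against the distance to the member in kb (logarithmic axis, overlapping genes drawn at 0.1 kb). Colours and shapes give the relative orientation, stars mark the chromosome 10 pair in which both genes are members, and the dashed line is at a log2 fold change of 4. Most neighbours lie between -2 and 2, and 6 non-members lie above the dashed line.

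Some neighbours moved against their member, but falls were not more common there than elsewhere. Of 67 expressed non-member neighbours, 9 (13.4%) were at least 2-fold lower in cold, against 21.3% of expressed non-members. The example that follows was chosen after its values were seen. A chromosome 6 gene in divergent orientation (116920317 to 116926344), 77.0 kb from the member with 441 FPKM in cold, had 474 and 407 fragments in control and 41 and 21 in cold (log2 fold change -3.42, adjusted p = 5.6e-05 by edgeR). Counting did not use strand, so reads of a gene that lies over a member cannot be told from those of the member, and with the counter's default setting fragments that touch exons of both genes are left unassigned. Annotated overlaps with another nuclear gene were found for 2 of the 61 genes, both convergent. They are the longest member, on chromosome 6, which overlaps its neighbour by 2181 bases, and the chromosome 4 gene with 13 exons, which overlaps its neighbour by 3940 bases. Neither overlapping neighbour was called, with log2 fold changes of 0.54 and 0.28 (adjusted p = 0.11 and 0.23).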

How the data were processed

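RNA-seq of whole B73 seedlings was analysed in 4 libraries. The authors deposited raw counts of fragments per gene, made with featureCounts 1.6.4 on the B73 RefGen_v4 annotation, release 43, counting read pairs as fragments, with no option set for strand, multi-mapping or overlapping features, per the file headers. "Raw" means not normalized: the alignment names in that header end in "filter", and what was removed is not stated there. Read trimming and alignment tools listed in the submitters' processing notes are fastp and HISAT2 (version of each: not given in the sources used here). Deposited exon lengths, the other values used, equalled the merged exon coordinates in every row.

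The members and lists were chosen with earlier results of these data known. CPM uses column totals. Genes kept by filterByExpr (minimum count 10, minimum total 15; 23169 kept) entered edgeR 4.0.16 (R 4.3.3), whose two-sided quasi-likelihood test was run with TMM factors of 0.894 to 1.10, condition as the only term and Benjamini-Hochberg adjustment at 0.05. Standard errors are the log2 fold change divided by the square root of F. No gene list by name could be applied, since 0 identifiers matched names.

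Genes named in the text are the 2 identifiers with the largest ratio and, by position, the 10 largest ratios, the 8 highest cold levels, the 5 highest levels per kilobase, the 5 highest control levels, the 5 largest gaps between cold libraries, 3 genes on each side of the limit, neighbouring members and extremes of length and exon number. Others, such as non-member neighbours, close pairs and single-exon genes, were chosen after their values were seen. Other settings tried were DESeq2 1.42.0, scaling by RLE, by upper quartile or by totals alone, other filters and thresholds, other limits in the rule, a replicate block and leaving out each library.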

Additional observations from a re-analysis of the deposited data

How the results depend on the processing

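The 61 genes were chosen on this contrast, so their 61 calls in each alternative fit, the replicate block included, say nothing about stability. With a library left out, the lone library of its condition was assumed to vary like the other group. Library totals lowered their log2 fold changes by a median of -0.22, as the median of all genes moved to -0.24. The same-numbered libraries share only a number: their deviations correlated at -0.071 across genes, and the replicate block gave 5829 genes higher and 5808 lower over all genes. Genes called lower numbered 6259, with 3956 at an adjusted p under 0.01 and 3978 to 6397 with a library left out (3978 without control replicate 2).

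The size of the group depends on its limits. It was 166 genes at 8-fold (median ratio 12.5), 25 at 32-fold (median 49.4), 23 with 5 CPM in both control libraries (median 22.1) and 39 when the lower cold was set against the higher control library. It was 75 with 0.5 CPM and 67 with TMM-scaled CPM, of which 57 were among the 61. With a library left out it was 50 to 72, and 49 to 59 of the 61 remained. The mean cold share of 2.61% became 1.23% without the 3 most abundant genes. The median ratio in libraries that did not choose the genes, 40.4, became 21.0 when replicate 2 chose, 23.1 when control 1 with cold 2 chose, and 31.0 when control 2 with cold 1 chose. In each condition 2 libraries limit the precision.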
